A study of Mus musculus with 30 samples.

Results

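The annexins are a family of calcium-dependent, phospholipid-binding proteins, and the 8 genes described here (Anxa1, Anxa2, Anxa3, Anxa4, Anxa5, Anxa6, Anxa7 and Anxa11) were taken by symbol from the 21412 genes of a hippocampal RNA sequencing table. The table holds 10 of the 12 annexin genes of the annotation; Anxa8 and Anxa9 were measured but are not among the 8, and are given once further on. The members were chosen by symbol with normalised counts of these libraries known, and the values that entered the choice of each gene were not recorded. Results known at that time included differences among the groups without selenium, so values in those groups, and every difference between the selenium groups and those groups, are given here as a description with no test. Tests of differences between groups were run on the members only among the groups given selenium.

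Hippocampus of male BALB/c mice was sequenced after oral exposure to methylmercury (MeHg), selenium or both, with 5 mice and 1 library per mouse in each of 6 groups. The groups without selenium were Ctr (unspiked control feed), LD (0.28 mg MeHg per kg feed) and HD (5 mg MeHg per kg feed), fed for 11 weeks from about 2 to 3 weeks of age plus 5 days of acclimatisation. Se_Ctr received selenium alone, Se_LD selenium with the low dose of mercury, and Se_HD selenium with the high dose; the series names dietary selenium-methionine, and its dose and the feeding time of these groups are not given in the sources used here. The labels name no transgene or mutation in any group. The libraries held 5768208 to 11510521 reads on genes, and markers of hippocampus (such as Prox1 of the dentate gyrus and Wfs1 of CA1) were detected in every group. Whole tissue was used, so that fewer cells of a type and less RNA per cell cannot be told apart.

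Each annexin has a conserved core that binds negatively charged phospholipids such as phosphatidylserine when calcium rises, and an N-terminal tail that differs between members and binds partner proteins. Annexin A2 joins S100a10 in a complex at the plasma membrane that binds plasminogen activators, annexin A1 is a mediator of the resolution of inflammation through formyl peptide receptors, and annexin A5 is the protein used to stain phosphatidylserine exposed on dying cells. In brain, annexin A6 and annexin A7 are found in neurons and glia, annexin A11 is carried with RNA granules along axons, and annexins A1, A2, A3 and A5 are prominent in vascular, meningeal and microglial cells.

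Promoter sequence is shown for Anxa2, Anxa4 and Anxa5. The window of Anxa1 lay wholly inside annotated exons, so no sequence of it is shown. The RefSeq promoter table (GRCm38.p6) has entries for 6 of the 8 members. Each window shown comes from the 250 bases before a RefSeq transcription start and was found 1 time on its chromosome in NCBIM37, the build of the count table; bases inside an annotated exon were left out, and for Anxa4 the window at the start of the longest gene model is shown. Capitals mark matches to a TATA box (TATAAA), an AP-1 site (TGANTCA), a GC box (GGGCGG) or a CCAAT box (CCAAT), searched on both strands.
Anxa2, chr9:69301240-69301426, plus strand: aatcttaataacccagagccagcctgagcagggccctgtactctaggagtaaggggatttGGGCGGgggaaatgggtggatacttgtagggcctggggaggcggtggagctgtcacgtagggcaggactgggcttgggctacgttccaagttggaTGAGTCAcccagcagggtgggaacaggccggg
Anxa4, chr6:86743579-86743828, minus strand: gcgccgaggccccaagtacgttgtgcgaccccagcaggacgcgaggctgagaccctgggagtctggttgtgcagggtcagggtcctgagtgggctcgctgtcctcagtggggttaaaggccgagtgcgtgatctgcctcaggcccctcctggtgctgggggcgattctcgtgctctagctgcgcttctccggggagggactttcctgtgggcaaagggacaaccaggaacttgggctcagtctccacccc
Anxa5, chr3:36374810-36375056, minus strand: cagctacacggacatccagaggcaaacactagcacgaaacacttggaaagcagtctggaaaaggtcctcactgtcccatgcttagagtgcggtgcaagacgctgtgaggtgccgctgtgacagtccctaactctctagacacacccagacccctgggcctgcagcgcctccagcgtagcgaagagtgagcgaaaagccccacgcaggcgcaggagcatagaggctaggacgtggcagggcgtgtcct

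The full 250-base window of Anxa2 held 1 TATA box, 1 AP-1 site and 3 GC boxes, all on the strand of the gene. The window of Anxa1 held 1 TATA box and none of the other motifs, and the windows of Anxa4 and Anxa5 held none of the 4 motifs. The 2 windows of Anxa7 held 4 and 1 GC boxes, the window of Anxa11 held 3, and neither gene had any of the other motifs there. Of the 32851 windows in the table, 12.4% held a TATA box, 6.75% an AP-1 site, 32.7% a GC box and 33.8% a CCAAT box. These matches describe the letters of the windows only.

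The 8 genes lie on 7 chromosomes (NCBIM37). Anxa7 (chr14:21274483-21299355, minus strand) and Anxa11 (chr14:26661669-26706290, plus strand) share chromosome 14. Anxa1 is at chr19:20447918-20465434 on the minus strand, Anxa2 at chr9:69301427-69339602 on the plus strand, Anxa3 at chr5:97222404-97274987 on the plus strand and Anxa4 at chr6:86686834-86743578 on the minus strand. Anxa5 is at chr3:36347847-36374765 and Anxa6 at chr11:54792610-54846947, both on the minus strand. Exons of Anxa2 overlap those of Gm16144 on the opposite strand by 98 bases, and whether the counting used strand is not given in the sources used here; exons of the other members overlap no other gene.

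Per kilobase of exon, Anxa7 had the highest mean level in Ctr, at 259 ± 20.7 normalised counts per kb (SD, n = 5). Anxa5 followed at 237 ± 37.1 and Anxa6 at 237 ± 31.1, and the ranges of these 3 genes overlapped. Anxa11 was lower, at 112 ± 24.2, with no overlap with its neighbours in that order. Anxa3 (30.6 ± 9.53), Anxa2 (26.6 ± 8.77) and Anxa4 (17.8 ± 4.75) formed a lower set in which each overlapped the next. Anxa1 was the lowest member in every group, at 7.77 ± 1.32 normalised counts per kb in Ctr, and rested on 5 to 52 reads per library over the 30 libraries. In HD the leading member was Anxa5, at 345 ± 129 normalised counts per kb, with a range that overlapped that of Anxa7 at 290 ± 20.0.

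**Figure D1:**
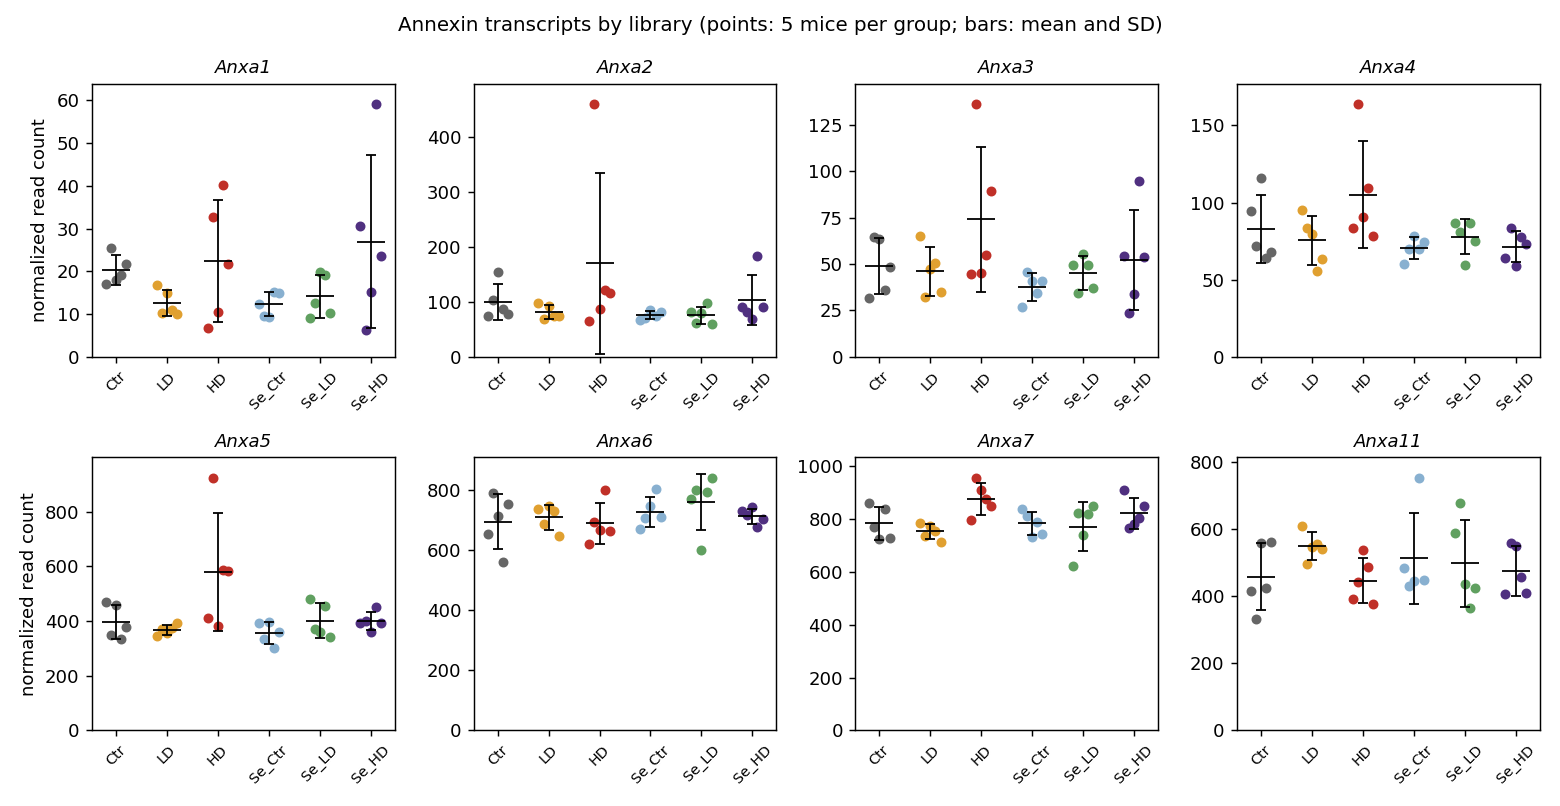
Normalised read count of each annexin (vertical axis, from 0, not divided by length) in the 6 groups (horizontal axis); points are the 5 libraries of a group, and bars give the mean and SD. A single HD library is the highest point for Anxa2 (459.5), Anxa3, Anxa4 and Anxa5 (924.7), while Anxa6 stays between 558.9 and 841.4 in all libraries.

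Anxa5, the phosphatidylserine-binding annexin, was higher in most HD libraries than in Ctr. The normalised counts of Anxa5 in Ctr were 469.7, 350.5, 457.3, 333.5 and 377.2 in replicates 1 to 5. In HD they were 412.9, 924.7, 382.1, 588.3 and 582.4. Replicates 2, 4 and 5 of HD lay above every Ctr library and the other two lay within the Ctr range, so that the groups overlapped. The difference was a log2 fold change of 0.48 (SE 0.17), and without HD replicate 2 it was 0.29 (SE 0.14). In LD, Anxa5 ranged from 346.2 to 393.2, inside the Ctr range, with a log2 fold change of -0.10 (SE 0.17).

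Anxa2, the S100a10-binding annexin, had the largest coefficient of variation (SD over mean) of the 8 in HD. Its normalised counts in Ctr were 73.66, 103.8, 154.0, 86.77 and 78.0. In HD they were 64.56, 459.5, 86.37, 120.6 and 115.8, and replicate 2 alone exceeded every Ctr library. That coefficient was 96.7% for Anxa2 in HD and 33.0% in Ctr. The log2 fold change from Ctr to HD was 0.43 (SE 0.35), and it was -0.02 (SE 0.22) without HD replicate 2, so that the direction of Anxa2 rested on that library. The count models gave 0.77 with edgeR and 0.77 with DESeq2. In LD the log2 fold change was -0.24 (SE 0.35).

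Anxa3 and Anxa4, annexins with roles in endothelial and epithelial cells, were also highest in HD replicate 2. Anxa3 read 31.39, 64.66, 63.3, 36.06 and 48.59 in Ctr and 44.39, 136.3, 45.36, 54.65 and 89.15 in HD. Replicates 2 and 5 of HD exceeded the Ctr range, and the log2 fold change was 0.51 (SE 0.29), or 0.25 (SE 0.27) without HD replicate 2. Anxa4 ranged from 64.23 to 116.2 in Ctr and from 78.32 to 164.0 in HD, where replicate 2 alone exceeded the Ctr range. Its log2 fold change was 0.32 (SE 0.21), or 0.15 (SE 0.20) without that library. In LD the log2 fold changes were -0.07 for Anxa3 and -0.12 for Anxa4, each smaller than its SE.

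Anxa7, an annexin with GTPase activity that takes part in exocytosis, had a higher mean in HD than in Ctr or LD, by a small amount. Its normalised counts were 860.9, 769.1, 725.6, 839.5 and 727.6 in Ctr, and 786.6, 737.9, 775.5, 755.3 and 713.1 in LD. In HD they were 797.6, 957.4, 910.8, 876.0 and 849.0, all above the Ctr mean and all above every LD library. Replicates 2, 3 and 4 of HD lay above every Ctr library, and replicates 1 and 5 lay within the Ctr range. The log2 fold change was 0.16 (SE 0.08) from Ctr to HD and 0.22 (SE 0.08) from LD to HD. Between LD and HD the Anxa7 groups did not overlap, as was so in the same direction for 0.869% of the 20031 genes tested; since results of these groups were known when the members were listed, nothing is read from the count. Without HD replicate 2 the Ctr to HD difference was 0.13 (SE 0.09).

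Anxa1, the formyl peptide receptor ligand, was lower in LD than in Ctr. Its normalised counts were 16.9, 25.52, 17.95, 19.16 and 21.74 in Ctr, and 16.74, 10.3, 14.81, 10.87 and 9.956 in LD. All 5 LD libraries lay below all 5 Ctr libraries, although the nearest pair differed by less than a count, and the log2 fold change was -0.66 (SE 0.37). Of all genes tested, 0.19% had LD below Ctr with no overlap. The HD libraries of Anxa1 were spread on both sides of Ctr, at 6.725, 32.65, 10.47, 40.18 and 21.66, with a log2 fold change of -0.11 (SE 0.37) that was 0.22 without HD replicate 1, 0.19 with edgeR and 0.18 with DESeq2.

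Anxa6 and Anxa11, which bind membranes along the endocytic and secretory routes, were close to Ctr in HD. The log2 fold changes were -0.01 (SE 0.10) for Anxa6 and -0.02 (SE 0.13) for Anxa11. Anxa11 was 331.8 to 561.3 in Ctr and 494.5 to 609.8 in LD, with all 5 LD libraries above the Ctr mean and a log2 fold change of 0.28 (SE 0.13), which was 0.18 without Ctr replicate 2. From Ctr to HD, none of the 8 members had groups without overlap, beside 0.978% of all genes with HD wholly above Ctr and 0.734% with HD wholly below. The median log2 fold change over all genes was 0.01 from Ctr to HD and 0.00 from Ctr to LD.

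**Figure D2:**
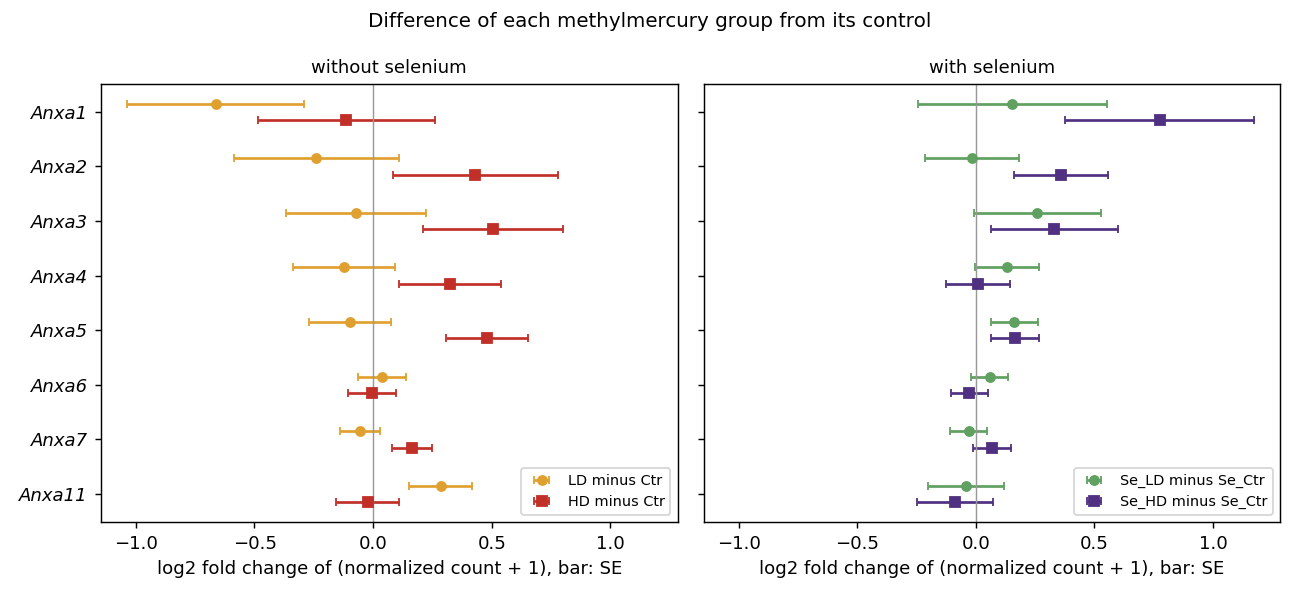
Log2 fold change of each annexin (horizontal axis, on the scale of log2 of normalised count plus 1) in the low dose group (circles) and the high dose group (squares) from the control of the same diet, without selenium (left) and with selenium (right); bars give the SE. Anxa2 to Anxa5 lie at 0.32 to 0.51 in HD, and Anxa1 lies at 0.78 in Se_HD with the widest bars of that panel.

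Among the groups given selenium, none of the 8 annexins passed the test in Se_HD against Se_Ctr (limma, with an unadjusted p under 0.05 both for any difference among the 3 selenium groups and for the contrast itself), where 2.06% of the 19679 genes tested did so. By the contrast alone 0 of the 8 passed, beside 4.19% of all genes (825), and over all genes 0 had an adjusted p under 0.05 by limma, 0 by edgeR and 4 by DESeq2. The largest difference was that of Anxa1. Its normalised counts were 12.34, 9.509, 9.377, 15.23 and 14.89 in Se_Ctr, and 30.49, 6.355, 15.11, 59.19 and 23.57 in Se_HD. Replicates 1, 4 and 5 of Se_HD lay above every Se_Ctr library and replicate 2 lay below them all. The log2 fold change of Anxa1 was 0.78 (SE 0.40; 95% interval -0.05 to 1.61; limma p = 0.0654, adjusted p = 1.00; exact permutation p = 0.167). Anxa1 passed in the count models run on the recovered reads, at a log2 fold change of 1.09 with edgeR and of 1.12 with DESeq2. It also passed with limma without Se_HD replicate 2, at 1.18, and it was 0.42 without Se_HD replicate 4.

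Anxa2 in the selenium groups read 66.47, 70.89, 84.39, 73.48 and 81.91 in Se_Ctr, and 90.72, 80.8, 68.94, 182.1 and 90.92 in Se_HD. Replicates 1, 4 and 5 of Se_HD exceeded the Se_Ctr range, the same libraries as for Anxa1. The log2 fold change was 0.36 (SE 0.20; 95% interval -0.05 to 0.77; limma p = 0.0848; exact permutation p = 0.135). It was 0.13 without Se_HD replicate 4 and 0.48 without Se_HD replicate 3, where it passed with limma.

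Anxa5 was above the Se_Ctr mean in 5 of 5 Se_HD libraries. It was 394.1, 335.4, 397.3, 301.1 and 358.3 in Se_Ctr, and 393.4, 399.5, 359.8, 451.9 and 394.0 in Se_HD. The groups overlapped, and the log2 fold change was 0.17 (SE 0.10; 95% interval -0.04 to 0.37; limma p = 0.113; exact permutation p = 0.111). The interval leaves out a log2 rise above 0.37.

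Anxa3 was 26.59, 45.82, 41.02, 34.05 and 40.54 in Se_Ctr, and 54.13, 23.61, 34.0, 94.47 and 53.88 in Se_HD, again with replicates 1, 4 and 5 above every Se_Ctr library. Its log2 fold change was 0.33 (SE 0.27; 95% interval -0.23 to 0.89), with 0.08 without Se_HD replicate 4 and 0.57 without Se_HD replicate 2. Anxa7 stood at 0.07 (interval -0.10 to 0.23), Anxa6 at -0.03 (interval -0.19 to 0.14), Anxa4 at 0.01 (interval -0.27 to 0.29) and Anxa11 at -0.09 (interval -0.42 to 0.25). The exact permutation test of the 8 members gave p values from 0.111 to 0.937, where the smallest value 5 against 5 libraries can give is 0.00794.

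In Se_LD against Se_Ctr none of the 8 passed, beside 1.46% of all genes. The log2 fold changes ran from -0.04 for Anxa11 to 0.26 for Anxa3 (95% interval -0.30 to 0.82). Between Se_HD and Se_LD none of the 8 passed either, beside 2.47% of all genes, and Anxa2 had the lowest p, at a log2 fold change of 0.38 (95% interval -0.04 to 0.79; limma p = 0.0717; exact permutation p = 0.206). The edgeR and DESeq2 fits also called none of the 8 in Se_LD against Se_Ctr.

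Set beside HD without selenium, Se_HD stood lower for Anxa2 to Anxa5, and for Anxa2 this rested on HD replicate 2. The log2 difference of Se_HD from HD was -0.46 (SE 0.15) for Anxa5, -0.51 (SE 0.18) for Anxa4, -0.51 (SE 0.30) for Anxa3 and -0.42 (SE 0.31) for Anxa2. Without HD replicate 2 it was -0.27 (SE 0.13) for Anxa5, -0.34 (SE 0.17) for Anxa4, -0.25 (SE 0.29) for Anxa3 and 0.04 (SE 0.22) for Anxa2. With every library it was -0.09 (SE 0.08) for Anxa7, 0.05 (SE 0.09) for Anxa6, 0.09 (SE 0.16) for Anxa11 and 0.20 (SE 0.41) for Anxa1. The selenium control itself also stood below Ctr for these genes, at -0.34 (SE 0.31) for Anxa2, -0.33 (SE 0.30) for Anxa3, -0.20 (SE 0.18) for Anxa4, -0.15 (SE 0.15) for Anxa5 and -0.69 (SE 0.41) for Anxa1, and at 0.00 (SE 0.08) for Anxa7. The difference of differences is the high dose minus its control with selenium less the same without. It was -0.07 (SE 0.43) for Anxa2, -0.17 (SE 0.42) for Anxa3, -0.32 (SE 0.26) for Anxa4, -0.31 (SE 0.21) for Anxa5 and 0.89 (SE 0.57) for Anxa1. Without HD replicate 2 these values were 0.38, 0.08, -0.14, -0.13 and 1.09 in the same order.

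Markers of other cells moved with these groups. The summed normalised count of 15 microglial markers was 3094 to 3427 in Ctr and 3955 to 9385 in HD, with 14 of the 15 passing the limma test as higher (beside 3.36% of all genes), and 3298 to 3846 in Se_HD. None of the 15 was at 0, and the highest sum was that of HD replicate 2, the library with the highest Anxa2, Anxa3, Anxa4, Anxa5 and Anxa7. The sum of 9 astrocyte markers was 60220 to 92850 in HD and 49840 to 59240 in Ctr, with 4 of 9 passing. Ependymal markers summed to 248.3 to 352.8 in HD and 72.45 to 262.1 in Ctr, with 4 of 5 passing. Without HD replicate 2, 13 of the 15 microglial, 4 of the 9 astrocyte and 3 of the 5 ependymal markers passed. HD replicate 2 also had the lowest sums of its group for excitatory neuron markers, at 31700 against 49820 to 53020, and for oligodendrocyte markers, at 27710 against 35470 to 45010. In Se_HD it was the leptomeningeal list that stood apart. Its 8 markers summed to 4846 to 7124, against 1835 to 4421 in Se_Ctr, with 5 of 8 higher (beside 1.28% of all genes). The highest sum was in Se_HD replicate 4, the library with the highest Anxa1, Anxa2 and Anxa3 of that group. That library also had the highest endothelial sum (2708) and mural cell sum (2695) of the group. Se_HD replicate 2, next in the leptomeningeal sum (6101), had the lowest Anxa1 and Anxa3 of the group. The sum of 9 choroid plexus markers ran from 311.9 to 38180 over the 30 libraries, with medians of 11130 in Ctr, 27690 in HD, 14390 in Se_Ctr and 29040 in Se_HD; the groups overlapped and 0 of the 9 passed in HD or in Se_HD (2 and 0 by the contrast alone). The part of these markers in the annexin values was not tested.

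Within groups the annexins fell into members that varied together and members that did not. Each log2 value was taken as its deviation from the group mean, over 30 libraries that share a dissection and a preparation for all genes, and the correlations are a description. Of the 28 pairs, 22 had r above 0 and 6 had r of at least 0.5, all 6 among Anxa1 to Anxa5. Anxa2 and Anxa3 gave the highest value, r = 0.79 (rho = 0.78), which was 0.68 without the 2 libraries farthest in Anxa2. Anxa1 and Anxa3 gave r = 0.70 (rho = 0.62; 0.54 without the 2 farthest), and Anxa1 and Anxa2 r = 0.61 (rho = 0.61; 0.60 without). These 3 pairs kept r of at least 0.5 without their 2 farthest libraries.

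The other 3 of the 6 pairs fell below 0.5 without their 2 farthest libraries. Anxa2 and Anxa5 gave r = 0.75 (rho = 0.47), which was 0.50 without HD replicate 2 and 0.48 without the 2 farthest. Anxa2 and Anxa4 gave r = 0.65 (0.44 without HD replicate 2, 0.46 without the 2 farthest), and Anxa4 and Anxa5 r = 0.61 (0.40 and 0.33). In the 15 selenium libraries alone, Anxa2 and Anxa5 gave r = 0.60, Anxa2 and Anxa4 r = 0.37, and Anxa4 and Anxa5 r = 0.48. Anxa2 and Anxa3 gave r = 0.81 there. Against the marker sums, taken in the same way, Anxa5 gave r = 0.64 with the microglial list (rho = 0.17). This r fell to 0.39 without HD replicate 2, and to 0.20 without the 2 libraries farthest in the marker sum. Anxa2 gave r = 0.59 with the endothelial list (0.71 without HD replicate 2), and Anxa1, Anxa3 and Anxa4 gave 0.57, 0.57 and 0.51 with it. Anxa11 gave r = 0.55 with the oligodendrocyte list (0.59 without HD replicate 2). The largest value in size was that of Anxa2 with the excitatory neuron list, r = -0.73 (rho = -0.74, and r = -0.49 without HD replicate 2). Anxa3 and Anxa5 gave -0.64 and -0.61 with that list, and Anxa11 gave 0.51. With the leptomeningeal list, Anxa1, Anxa2 and Anxa3 gave r = 0.11, 0.16 and 0.14.

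**Figure D3:**
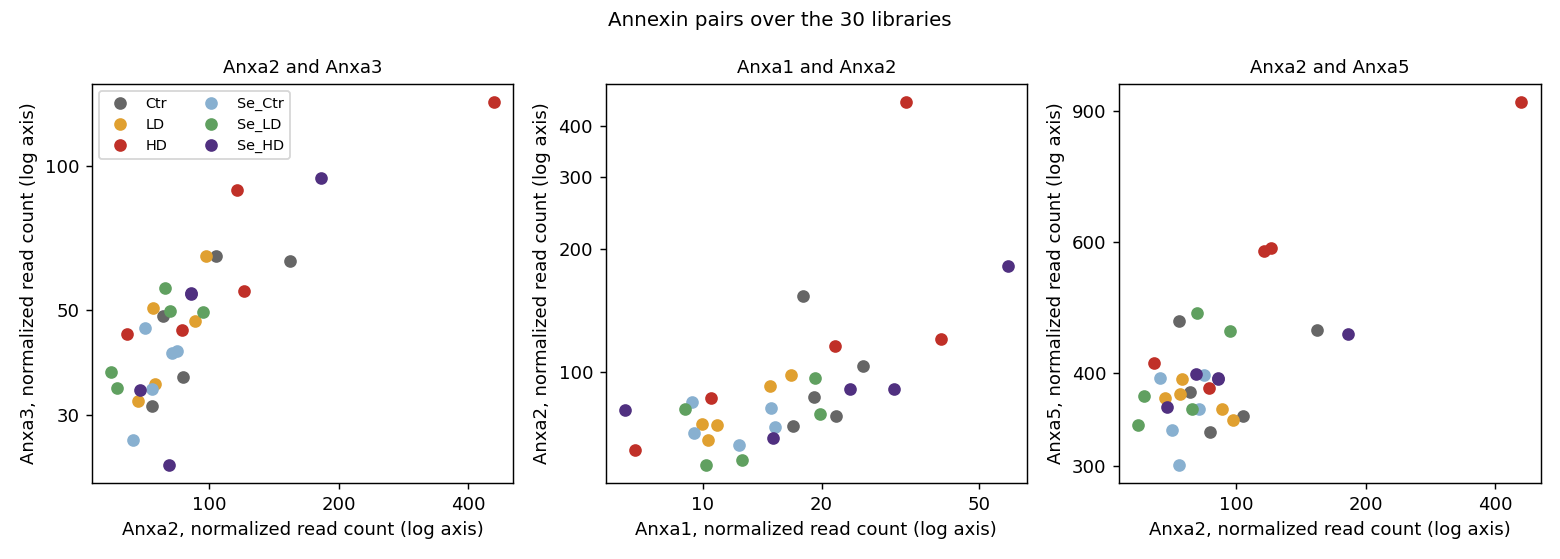
Normalised read counts of 3 annexin pairs in the 30 libraries (log axes, one point per library, coloured by group). Anxa2 rises with Anxa3 (r = 0.79 of deviations from group means) and with Anxa1 (r = 0.61), and the HD library at 459.5 for Anxa2 stands alone beside Anxa5, at 924.7.

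The genes most like each member over the 30 libraries, out of 14288 with a mean of at least 10, differed between members. Anxa2 was most like Vim (r = 0.91), the intermediate filament of mesenchymal and reactive glial cells, then Fn1 (r = 0.90), fibronectin, and Bgn (r = 0.89), a matrix proteoglycan. Anxa3 was also most like Fn1 (r = 0.84), followed by Emp3 and 2900073G15Rik. Among the genes most like Anxa1 were Col3a1 (r = 0.81), a fibrillar collagen, and Efemp1 (r = 0.80), a matrix glycoprotein. Anxa5 was most like Ctsb (r = 0.89), a lysosomal protease, Spp1 (r = 0.88), osteopontin, and Cd9 (r = 0.88), a tetraspanin. Without the 2 libraries farthest in the member, these values fell to 0.63 to 0.71 for Anxa2 (lowest for Bgn), 0.67 to 0.72 for Anxa3, 0.71 to 0.74 for Anxa1 and 0.69 to 0.74 for Anxa5.

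Anxa4 was most like Myo1e (r = 0.84), a class I myosin, and then Ptgfrn and Ctnna1, at 0.57 to 0.68 without its 2 farthest libraries. Anxa7 was most like Tlr6 (r = 0.72) and Tlr7 (r = 0.68), Toll-like receptors of innate immune cells, and then Arhgef26, and these 3 fell to 0.57, 0.45 and 0.54 without its 2 farthest libraries. Anxa6 was most like Actr1a (r = 0.77), a dynactin subunit, then Mtg1 and Anapc2, at 0.58 to 0.76 without its 2 farthest libraries. Anxa11 was most like Wipf3 (r = 0.87), Cacna1h (r = 0.84), a T-type calcium channel, and Kif17 (r = 0.81), a dendritic kinesin, and these 3 stayed at 0.76 to 0.81 without its 2 farthest libraries.

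The EF-hand partners of annexins, are small calcium-binding proteins that dock on annexin tails. Of the 8 genes listed, 5 passed the test as higher in HD against Ctr and 0 as lower, beside 3.36% of all genes higher. The median log2 fold change over the list was 0.64. This list was drawn up with earlier results of these data known, so the count is a description and nothing is read from its excess over all genes. The 5 were S100a1, S100a4, S100a6, S100a10 and S100b, and the adjusted p (limma) of each was at least 0.185. Of the other members S100a11 stood at 0.68 (0.05 without HD replicate 2), Pdcd6 at -0.07 and Sri at -0.09. Without HD replicate 2 the count was 2 (S100a1 and S100a6), beside 2.31% of all genes. With every gene list kept, the count was 3 without Ctr replicate 4, 2 with limma without trend and 6 with edgeR. In LD against Ctr 0 of the 8 passed with limma, edgeR or DESeq2, beside 1.46% of all genes with limma.

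S100a10, the partner of annexin A2, was 90.56, 163.3, 99.21, 72.12 and 99.74 in Ctr, and 111.6, 992.5, 94.22 and 147.9 in replicates 1 to 4 of HD, with replicate 5 between the last of these and replicate 2. HD replicates 2 and 5 exceeded the Ctr range, and replicate 2 is the library in which Anxa2 was highest. The log2 fold change was 0.97 (SE 0.41; limma adjusted p = 0.52) and passed, and it was 0.39 (SE 0.22) and did not pass without HD replicate 2. S100a6, a partner of annexins A2, A6 and A11, was 53.13 to 105.5 in Ctr and 104.9, 928.0, 94.22, 213.0 and 188.3 in HD, with a log2 fold change of 1.44 (SE 0.42; limma adjusted p = 0.20). Without HD replicate 2 it was 0.90 (SE 0.26) and still passed. S100a11, a partner of annexin A1, was 10.14 to 24.57 in Ctr and 9.596 to 145.3 in HD and did not pass (0.68, SE 0.51).

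**Figure D4:**
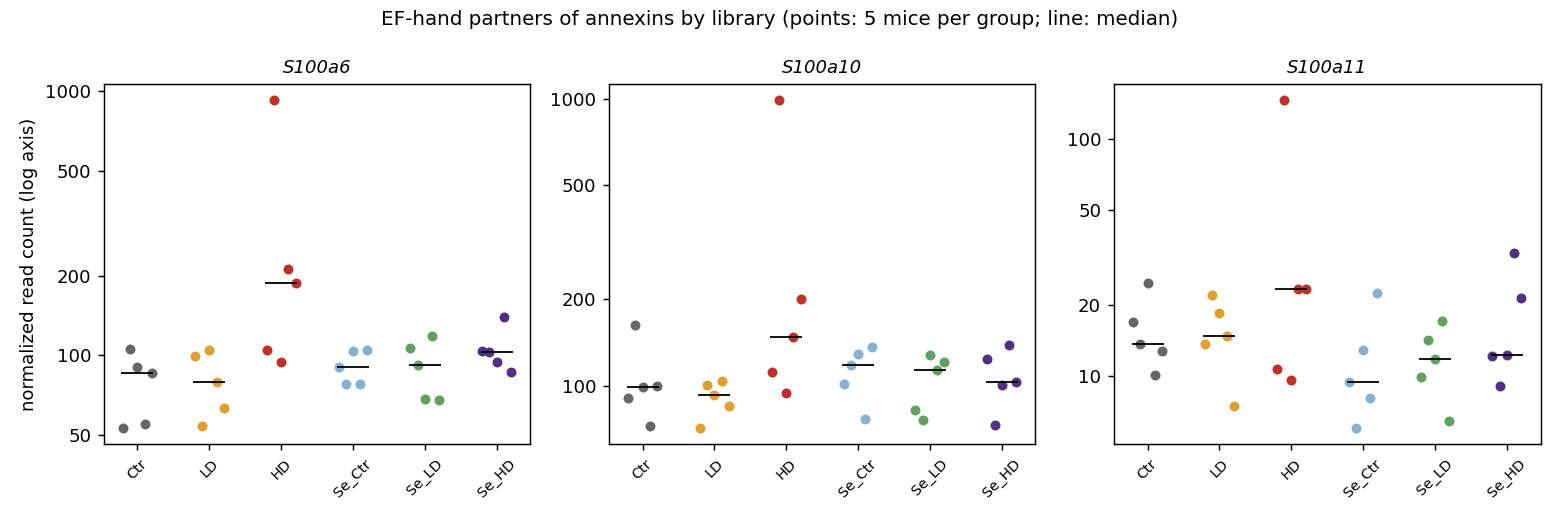
Normalised read count (log axis) of 3 EF-hand partners of annexins in the 6 groups; points are the 5 libraries of a group and the line is their median. HD replicate 2 is the highest point for S100a6 (928.0), S100a10 (992.5) and S100a11 (145.3), and the Se_HD libraries of S100a10 lie at 72.63 to 138.9, within the range of Ctr and Se_Ctr together.

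With selenium, 0 of the 8 EF-hand partners passed in Se_HD against Se_Ctr (1 by the contrast alone; 0 with edgeR and 0 with DESeq2), beside 2.06% of all genes, or 4.19% by the contrast alone. The lowest p was that of S100b, an astrocyte protein (log2 fold change 0.17, SE 0.07), which passed by the contrast alone. S100a10 stood at -0.06 (SE 0.18), S100a6 at 0.21 (SE 0.16) and S100a11 at 0.52 (SE 0.36), none of which passed.

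The other genes of annexin function changed in few places. Of 11 measured genes of phosphatidylserine recognition and exposure, 2 passed as higher in HD, and 0 passed without HD replicate 2. They were Pros1, protein S, at 0.82 (SE 0.31, limma adjusted p = 0.41), and Axl, at 0.40 (SE 0.18, limma adjusted p = 0.58). Of 7 genes of plasminogen activation, 1 passed, Serpini1 (neuroserpin, an inhibitor of tissue plasminogen activator), which fell by 0.51 (SE 0.14; limma adjusted p = 0.16) and by 0.40 without HD replicate 2. Of 10 membrane repair genes, 9 copines and 2 measured formyl peptide receptors, 0 passed in HD against Ctr, beside 3.36% of all genes higher and 1.73% lower. The copine Cpne7 passed, at 0.51, without HD replicate 2. Over all partner lists 8 of 49 genes passed in HD against Ctr (16.3%, beside 5.09% of all genes) and 11 of 49 in HD against LD (22.4%, beside 4.49%). Leaving out HD replicate 2, 4 of 49 passed in each (8.16%), beside 3.63% of all genes against Ctr and 2.93% against LD. Of the 8 genes that passed in HD against Ctr, 5 were the EF-hand partners given above. The lists were drawn up with earlier results of these data known, so nothing is read from these shares in the groups without selenium.

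In Se_HD against Se_Ctr 1 of the 48 partner genes tested passed (2.08%), a share close to the 2.06% of all genes. It was Ahnak, a large scaffold protein that binds the annexin A2 and S100a10 complex, at 0.50 (SE 0.18; limma adjusted p = 1.00). In LD against Ctr 3 of 49 partner genes passed (6.12%, beside 1.46% of all genes), each with a limma adjusted p of 1.00. Ahnak fell by 0.53 (SE 0.18), Plau, the urokinase plasminogen activator, fell by 0.56 (SE 0.24), and Cpne9, a copine, rose by 0.55 (SE 0.21). Ahnak stood at 0.24 in HD against Ctr (SE 0.18), where it did not pass, and at 0.76 in HD against LD (SE 0.18; limma adjusted p = 0.10), where it passed. In Se_HD against Se_Ctr the lowest p of the other lists belonged to Gas6 (0.25, SE 0.13), Plat (0.20, SE 0.11), Fpr2 (0.61, SE 0.44) and Cpne1 (0.09, SE 0.07), which did not pass. The annexins outside the 8 were low, with Anxa8 at 0 to 14.78 and Anxa9 at 4.688 to 26.13 normalised counts, and neither passed in any of the contrasts run.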

How the data were processed

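Hippocampal RNA of 30 male BALB/c mice was sequenced as stranded, poly(A)-selected libraries (single-end reads of 75 bases). Per the study's methods and processing notes, the authors trimmed reads with Trim Galore (0.4.2), aligned them with HISAT2 to NCBIM37, counted genes with featureCounts, removed genes with a read sum under 10 and divided the counts by DESeq2 size factors. The deposited signal values are these normalised read counts; per library, 100% of them became whole reads (tolerance 0.01) when multiplied back. Gene names came from the matching annotation (21326 of 21412 genes).

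Groups came from the sample labels, and replicate numbers follow accession order and only name a library. The members, gene lists and tests were chosen with earlier results of these data known. Members with their positions were read from the table, and normalised counts per kilobase used the summed exon length. Log2(normalised count + 1) was fitted with limma (3.58.1, moderated test with a trend) with 1 coefficient per group, separately over the 15 libraries without and the 15 with selenium, for genes whose normalised counts sum to at least 10 (20031 and 19679 genes). A gene passed when the F test over 3 groups and the contrast both had an unadjusted p under 0.05; Benjamini-Hochberg adjusted p values over all genes are given beside. Fold changes on this scale understate the change of low genes. Differences between selenium groups and the others came from a fit of all 30 libraries. Single values were tested with a two-sided exact permutation test. The labels name no batch. Alternatives were other pseudocounts (0.1 and 10), filters, quantile normalisation, size factors within the fit, limma without the trend, all libraries together, library sets as a block, the count models of edgeR (4.0.16) and DESeq2 (1.42.0) run on reads recovered from the values, and leaving out each library. The genes named are the 8 members, S100a6, S100a10 and S100a11, the partner-list genes that passed or had the lowest p of their list in Se_HD against Se_Ctr, and for likeness the 3 genes with the highest r per member, of which 1 is not reported here; partner genes that passed in HD or LD against Ctr were named, and the selenium differences and partner totals without HD replicate 2 and the alternatives for the EF-hand counts were added, after the values were seen. The fitting steps were tested on simulated data for Se_HD against Se_Ctr.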

Additional observations from a re-analysis of the deposited data

Results flagged for a closer look

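In 48 groups of 5 libraries (8 genes in 6 groups), 3 held a library far from the others by Dixon's test at the 95% level, where 2.4 would be flagged by chance. Values of the groups without selenium were known when the genes were chosen, so the gap is a description there. For Anxa2, HD replicate 2 stood at 459.5 normalised counts, with a gap to the next library of 0.858 of the range of its group. For Anxa2, Se_HD replicate 4 stood at 182.1, with a gap of 0.806 of the range. For Anxa11, Se_Ctr replicate 4 stood at 752.7, with a gap of 0.839 of the range. The microglial markers of HD replicate 2 summed to 9385, the leptomeningeal markers of Se_HD replicate 4 to 7124 and the excitatory neuron markers of Se_Ctr replicate 4 to 71000, each the highest of its group. Their part in these values was not tested.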

How the results depend on the processing

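Without selenium, Anxa1 in HD turned from -0.11 to 0.19 with edgeR and 0.18 with DESeq2, and Anxa2 in HD went from 0.43 to 0.77 with both, shifts within the spread between replicates. Of the comparisons of the 8 annexins under settings that kept every library, 192 without selenium, where no test was run, moved by less than that spread, and 190 with selenium kept their side of the test. The other 2 with selenium were Anxa1 in Se_HD against Se_Ctr, which passed with edgeR and with DESeq2, so that 1 of the 8 members passed with each, against 0 with limma. Leaving out a library gave 0 to 1 members in Se_HD and 0 to 1 in Se_LD (Anxa6 at 0.14 without Se_LD replicate 3). EF-hand partners in HD numbered 6 with edgeR, 2 with limma without trend and 2 to 5 leaving out a library. In Se_HD they numbered 1 without the condition on all groups and 0 to 1 leaving out a library, and in Se_LD 0 to 1.

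Over all genes, those with an adjusted p under 0.05 in HD numbered 26 as fitted, 17 and 11 with a pseudocount of 0.1 and 10, 0 with limma without trend, 209 with 30 libraries in a single fit, 45 with edgeR, 196 with DESeq2 and 3 to 76 leaving out a library (3 without Ctr replicate 4). In Se_HD they numbered 4 with DESeq2 and 0 to 2 leaving out a library. Genes past the unadjusted test numbered 292 in LD, and 137 with a mean of at least 10, 516 in the single fit and 603 without the condition on all groups. Without that condition they numbered 1671 in HD (1019 with it), 652 in Se_LD (288 with it) and 825 in Se_HD (405 with it). The single fit gave 143 in Se_LD and 224 in Se_HD, and leaving out a library gave 226 to 553 in Se_LD. The cause of these shifts was not tested.

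Replicate numbers carry no pairing. With sets of 6 consecutive library numbers as a replicate block, 1 gene had an adjusted p under 0.05 in Se_HD and 0 of the 8 members passed. By the contrast alone, Anxa1 in Se_HD against Se_Ctr had a limma p of 0.042 with that block. Deviations of libraries of the same set correlated at -0.00497 on average, against 0.00162 for other sets, and 1 of 30 libraries correlated best with its own set. Anxa1 is limited by depth, at 5 to 52 reads per library. Separate mice are the replicates, and 5 per group leave intervals as wide as those given for Anxa1 and Anxa3.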
